A study of Mus musculus with 12 samples.

Results

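Rab proteins are small GTPases that mark the membranes of the secretory and endocytic routes. Here the 59 protein-coding mouse genes whose symbol is Rab followed by a number and at most a letter and a digit are described, out of 27179 gene identifiers in the count table. A Rab binds a membrane through lipid groups attached to cysteines at its C-terminal end, is switched on by an exchange factor (GEF), recruits effectors such as tethers and motor adaptors, and is switched off by a GTPase-activating protein (GAP). GDP dissociation inhibitors (GDIs) then carry it back through the cytosol. In dendritic cells, which take up, process and present antigen, Rabs direct endosomes, phagosomes and secretory granules, and several of them take part in the release of exosomes, small vesicles shed from multivesicular endosomes.

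Libraries were made from dendritic cells grown from the bone marrow of C57Bl/6 mice and from exosomes of the same cultures, 1 library of each kind per mouse and 12 libraries in 4 groups of 3. Wild-type (WT) cells and exosomes came from mice 33 and 42, both female, and mouse 46, a male, and the other groups came from mice 151, 152 and 153, all male and labelled as Sidt1/Sidt2 double knock-out (DKO), genes related to the nematode RNA channel SID-1. All 4 groups shared 7 days of culture in DMEM with fetal calf serum (10%) and, as the source of GM-CSF, X-63 supernatant (10%). The sources used here do not give the age of the mice. Exosomes were obtained by ultrafiltration followed by ultracentrifugation, and their RNA was extracted with other reagents than that of the cells, so compartment and extraction cannot be told apart. The medium's serum and X-63 supernatant can carry vesicles too, and their part in the exosome libraries was not tested. Values below are listed for mice 33, 42 and 46, and for mice 151, 152 and 153, in that order.

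Library totals ran from 7215083 to 32273898 counts, and the Rab genes together took 0.391% to 0.506% of them. Sidt2 had 169 to 217 CPM (counts scaled to library size with TMM factors) in WT cells and 0.632 to 1.32 CPM in cells labelled DKO. Sidt1 had 0 to 0.0839 CPM in WT cells and 51.8 to 59.5 CPM in cells labelled DKO, so its RNA level did not follow that label. Whether this RNA encodes a working protein was not tested. DKO therefore names the label throughout. The 13 dendritic cell markers summed to 10982 to 13890 CPM in WT cells, 8323 to 11056 in DKO cells, 4178 to 4785 in WT exosomes and 2659 to 2996 in DKO exosomes, with none at 0 in any group. The 10 macrophage markers summed to 2106 to 2652 CPM over the cell libraries and 1386 to 1697 CPM over the exosome libraries, and 8 neutrophil and progenitor markers reached 3635 CPM in the WT exosomes of mouse 33 against 557 to 1954 CPM in the other exosome libraries. Their part in the differences below was not tested, and in bulk RNA a smaller share of cells of a type and less RNA per cell cannot be told apart.

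The coding ends of the genes show the cysteines through which a Rab is anchored. All 59 genes had a cysteine codon among the last 5 codons before the stop. In 15 the final pair of codons both encoded cysteine, in 20 a cysteine codon stood on either side of 1 other codon at the end, in 21 a cysteine codon was at place 4 from the end, and 3 (Rab20, Rab34 and Rab44) had another arrangement. The last 10 codons, the stop included, are shown 5′ to 3′ from GENCODE transcripts of GRCm38 for the genes on which the results turn, with cysteine codons in capitals. The first 4 end in a cysteine pair, the next 3 have the spaced pair, and the next 3 have a cysteine at place 4 from the end. In the last, as in Rab20 and Rab44, a cysteine pair stands before 1 other codon at the end.
Rab1b: gtgaagcctgctagcggtggcTGCTGCtag
Rab31: agcttgcaagccagccgtcggTGCTGCtga
Rab7b: ccaggccagccaaagagcagaTGCTGCtga
Rab9: aagcccaagccaaactcatctTGCTGTtga
Rab27a: gagaaggagaaggggttgTGTggcTGTtga
Rab7: aaggcctccgcagaaagcTGCagtTGTtga
Rab3d: cccccacagccgagcagcTGCagcTGTtag
Rab8b: accagtttcttccgcTGTtctctgctttga
Rab24: ccttacttctacagcTGTTGTcatcactga
Rab30: agctatttgactTGTTGTaatttcaactaa
Rab34: agcaagaaaaaggccacaTGTTGTccctga

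The genes lie, in mm10 coordinates, at chr19:5099207-5106996 (Rab1b), chr17:65651726-65772752 (Rab31), chr1:131688681-131715443 (Rab7b), chr9:73044810-73097623 (Rab27a), chr6:87999106-88045270 (Rab7), chr11:78188427-78192193 (Rab34) and chr7:92741637-92844535 (Rab30). The spans are those of the whole genes, introns included, and the sequences above are the ends of their coding exons. By class of coding end, the median log2 difference between WT exosomes and cells was 0.55 over 13 tested genes with the cysteine pair, 0.41 over 16 with the spaced pair and 0.36 over 18 with the cysteine at place 4. The same medians were 0.46 over 13 genes, 0.21 over 14 and 0.35 over 17 in the DKO comparison. The 3 genes with another arrangement (Rab20, Rab34 and Rab44) had medians of 0.37 in WT and 1.03 in DKO.

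A few housekeeping members led the family in dendritic cells. Rab7, the Rab of late endosomes and lysosomes, had the highest level per length in WT cells, 520 ± 28.1 TPM (counts divided by the deposited gene length and scaled within the library, SD, n = 3), followed by Rab5c of early endosomes with 317 ± 13.7 TPM. The next were Rab1a of endoplasmic reticulum (ER) to Golgi transport with 207 ± 30.2 TPM, Rab8b of transport to the plasma membrane with 187 ± 24.1 TPM and Rab14 of the route between Golgi and endosomes with 173 ± 14.9 TPM. Rab7 stood above Rab5c and Rab5c above Rab1a by more than their SDs, whereas Rab1a, Rab8b and Rab14 lay within their SDs of each other. The 5 highest members of a library made up 42.1% to 43.4% of Rab TPM in cells and 44.9% to 49.0% in exosomes. Rab7 and Rab5c ranked 1 and 2 in all 4 groups, while Rab8b ranked 4 in both cell groups and 8 in both exosome groups, and Rab1b ranked 7 and 9 in the cell groups and 3 and 4 in the exosome groups. The deposited length of Rab7, 624 bases, equals that of its coding sequence, and 23.6% of its 80-base stretches occur also in other transcripts, chiefly its pseudogene Rab7-ps1, so its rank is uncertain.

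**Figure D1:**
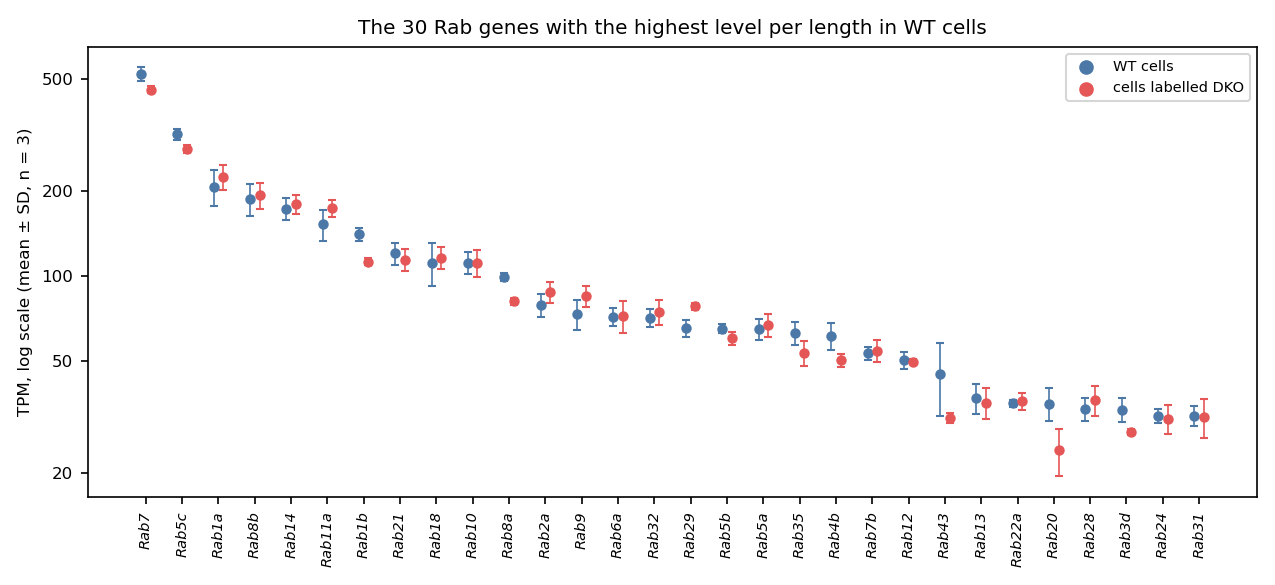
Level per length (TPM on a log axis, mean ± SD, n = 3) of the 30 Rab genes highest in WT cells, in WT cells and in cells labelled DKO. Rab7 and Rab5c lead in both groups, and Rab1a, Rab8b and Rab14 follow with overlapping error bars.

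At the low end, 10 genes had a mean under 1 CPM in every group: Rab3b, Rab3c, Rab9b, Rab17, Rab25, Rab27b, Rab36, Rab39b, Rab40b and Rab42. Rab9b had no count in any library, and a count of 0 allows up to 3 counts, or 0.093 to 0.416 CPM depending on the library. Rab3b and Rab3c are best known from regulated secretion in neurons and endocrine cells, and Rab17 and Rab25 from epithelial cells. These limits cover counting error only.

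Exosomes were compared with the cells of the same cultures, to ask how the RNA of the vesicle preparations differs from that of the cells. Of the 59 Rab genes, 50 passed the filter on low counts in the WT comparison and 47 in the DKO comparison. Called means an adjusted p below 0.05 in edgeR's quasi-likelihood test with Benjamini-Hochberg adjustment over all genes tested. In WT, 18 Rab genes were higher and 4 lower in exosomes, or 36.0% and 8.0% of those tested, where 18.7% of all 12829 tested genes were called higher and 19.6% lower. The median log2 difference was 0.45 over the tested Rab genes and −0.02 over all genes. In DKO, 24 Rab genes were higher and 5 lower, or 51.1% and 10.6%, where 23.7% of all 12316 tested genes were called higher and 23.7% lower, and the medians were 0.42 and −0.01. Among the 36 members with a mean of at least 10 CPM over the 12 libraries, 15 were higher and 2 lower in WT, and 23 and 3 in DKO. Summed over the family, Rab genes took 0.419% to 0.423% of counts in WT cells and 0.391% to 0.426% in WT exosomes, which overlap. In DKO they took 0.397% to 0.418% in cells and 0.427% to 0.506% in exosomes. Summed Rab TPM was 3185 to 3345 in WT cells and lower in WT exosomes, at 2560 to 3177. In DKO it was 3004 to 3225 in cells and 3370 to 4018 in exosomes.

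The WT count depended on the scaling and on single libraries. Scaled to total counts, the median of all genes moved to −0.387 and that of the Rab genes to 0.08, so that Rab genes stood 0.47 above the median of all genes, against 0.46 with TMM, while 8 were called higher and 6 lower. The additional lower calls were Rab9 and Rab10. In DKO total-count scaling gave 17 higher and 6 lower, with the median of all genes at −0.144. Without the WT cells of mouse 42, or of mouse 46, 9 were higher and 2 lower, and without the WT exosomes of mouse 42, 10 were higher and 3 lower. By role, leaving out the WT cells of mouse 42 or 46 left 2 higher and 1 lower ER and Golgi Rabs, 2 and 0 early endosome Rabs, 0 and 0 recycling Rabs and 3 and 0 late endosome Rabs. Without the WT exosomes of mouse 42, 2 and 2 ER and Golgi Rabs and 3 and 0 early endosome Rabs were called. In DKO, 4 and 2 ER and Golgi Rabs were called without the cells of mouse 151 and 3 and 2 without those of mouse 152.

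**Figure D2:**
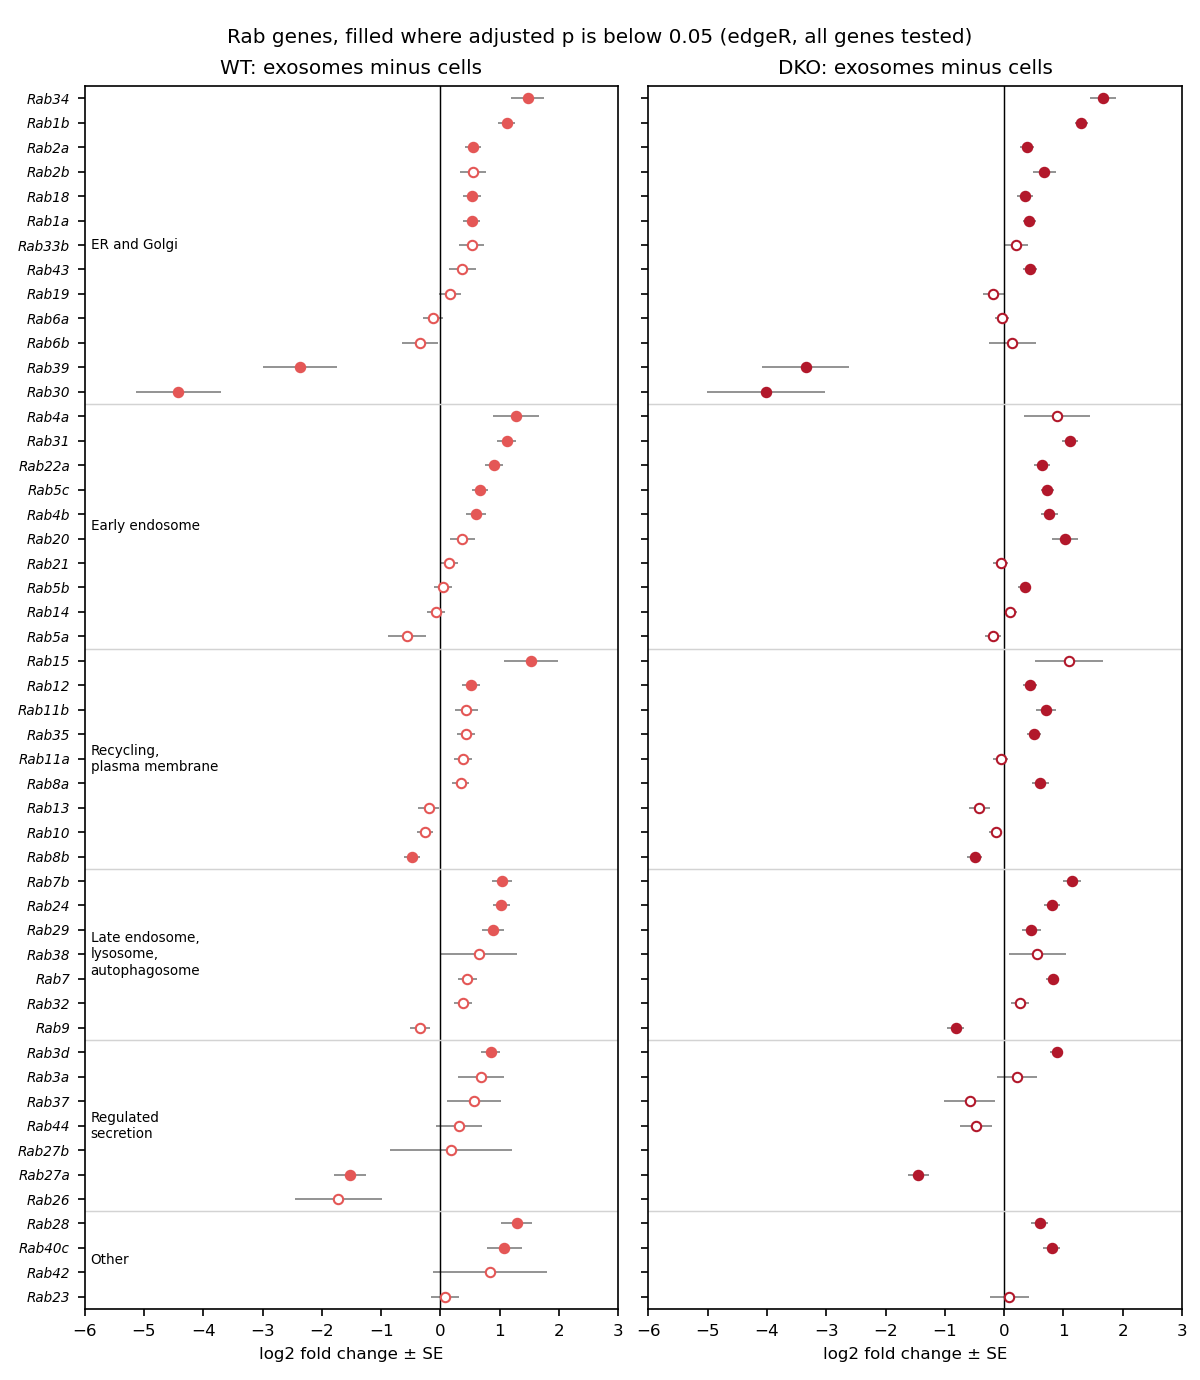
Log2 fold change between exosomes and cells (± SE, 3 libraries per group) of each tested Rab gene, in WT on the left and in libraries labelled DKO on the right, grouped by role. Filled points were called (adjusted p below 0.05, edgeR). Most points lie right of 0 in both panels, with Rab30, Rab39 and Rab27a far to the left in both and Rab26, tested in WT and not called there, at −1.72.

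Rabs of the ER and Golgi carry newly made proteins through the early secretory route. The list used here also holds Rab34 and Rab39, for which other sites are named below. Of 13 tested, 5 were higher and 2 lower in WT exosomes, and 7 and 2 in DKO exosomes. In WT those are 38.5% and 15.4%, beside 18.7% and 19.6% of all genes. In DKO they are 53.8% and 15.4%, beside 23.7% of all genes each way. With the mouse as a block 3 were higher and 2 lower in WT, and with total-count scaling 2 and 2 in WT and 3 and 2 in DKO. Rab1b, which acts between ER and Golgi, had 153, 132 and 127 CPM in WT cells and 281, 286 and 319 CPM in WT exosomes. In DKO it had 112, 122 and 115 CPM in cells and 268, 298 and 289 CPM in exosomes. Cell and exosome libraries did not overlap in either genotype, and all 6 mice had more in exosomes. The difference was 1.12 ± 0.14 on the log2 scale in WT (SE, adjusted p = 0.00187, edgeR) and 1.30 ± 0.11 in DKO (adjusted p = 8.33e-06, edgeR). Its close relative Rab1a had 258, 315 and 303 CPM in WT cells, 419, 397 and 436 CPM in WT exosomes, 329, 315 and 356 CPM in DKO cells and 413, 468 and 454 CPM in DKO exosomes. The groups again did not overlap, with a smaller difference of 0.53 ± 0.14 (adjusted p = 0.0222, edgeR) in WT and 0.42 ± 0.11 (adjusted p = 0.0107, edgeR) in DKO. The WT call was lost under 7 of 15 alternatives, the mouse as a block, any 1 WT cell library left out and the WT exosomes of mouse 42 left out among them. The DKO call was lost with total-count scaling and without the DKO cells of mouse 151 or 152.

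Rab34, linked to lysosome positioning and to cilia, was low but had the highest positive fold among the members called in both genotypes. It had 4.36, 3.69 and 2.74 CPM in WT cells and 9.48, 11.3 and 8.64 CPM in WT exosomes, and 5.91, 5.51 and 4.46 CPM in DKO cells and 14.4, 20.0 and 15.7 CPM in DKO exosomes. Every exosome library lay above every cell library of its genotype. The log2 difference was 1.47 ± 0.28 in WT (adjusted p = 0.00671, edgeR) and 1.66 ± 0.22 in DKO (adjusted p = 0.000155, edgeR). Rab2a, which acts at the Golgi, was called higher in both, by 0.55 in WT and 0.39 in DKO, calls lost under 5 of 15 and 3 of 14 alternatives, total-count scaling and leaving out the WT cells of mouse 42 or 46, the WT exosomes of mouse 42, or the DKO cells of mouse 151 or 152 among them. Rab18, of ER and lipid droplets, was called higher by 0.53 and 0.35, but the WT call was lost under 7 of 15 alternatives, the mouse as a block among them, and the DKO call under 11 of 14, among them leaving out any 1 DKO library but the exosomes of mouse 151. Rab2b and Rab43 were called higher in DKO, by 0.68 and 0.43, and missed the threshold in WT at 0.55 and 0.37. With total-count scaling their WT differences were 0.17 and −0.01. The call of Rab2b was lost without the DKO cells of mouse 152 and that of Rab43 with total-count scaling and in the fit on all 12 libraries, and 72.9% of the 80-base stretches of Rab2b, and a larger share of those of Rab43, occur in transcripts of other genes, so their counts are uncertain. Rab6a, Rab6b, Rab19 and Rab33b were called in neither genotype, and Rab33a, Rab36 and Rab39b were too low to be tested between compartments.

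The lower members of the group were Rab30, a Golgi Rab, and Rab39, which acts in phagosomes and endosomes. Rab30 had 2.38, 1.61 and 2.99 CPM in WT cells and 0, 0.145 and 0.103 CPM in WT exosomes, or 227 counts against 4 over the groups. In DKO it had 1.94, 1.47 and 1.24 CPM in cells and 0, 0 and 0.399 CPM in exosomes, or 83 counts against 3. Exosome libraries were at or near 0 in both genotypes. The ratio of exosomes to cells per total count was 0.0352 (95% counting interval 0.00950 to 0.0912) in WT and 0.0481 (0.00973 to 0.146) in DKO, and both differences were called (adjusted p = 0.00402 and 0.00693, edgeR). Rab39 had 3.38, 4.01 and 4.47 CPM in WT cells, 0.146, 1.40 and 0.412 CPM in WT exosomes, 2.82, 3.28 and 4.35 CPM in DKO cells and 0.637, 0 and 0.399 CPM in DKO exosomes. It too did not overlap between compartments, with log2 differences of −2.37 ± 0.63 (adjusted p = 0.0219, edgeR) and −3.35 ± 0.73 (adjusted p = 0.00328, edgeR). The WT call was lost without any 1 of the WT cell libraries.

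Early endosome Rabs sort internalised cargo, and of 10 tested, 5 were higher and 0 lower in WT exosomes and 6 and 0 in DKO exosomes. Of all tested genes, 18.7% were called higher and 19.6% lower in WT, and 23.7% each way in DKO. With total-count scaling 2 of the early endosome Rabs were higher and 0 lower in WT. At an unadjusted p below 0.05, 0 were lower in either genotype (edgeR), DESeq2 called 0 lower in both, and limma voom called 1 lower in WT and 0 in DKO. Rab31, which acts between the trans-Golgi network and endosomes and has been linked to exosome formation, had 61.7, 62.6 and 53.0 CPM in WT cells and 139, 131 and 110 CPM in WT exosomes. In DKO it had 52.5, 62.5 and 69.6 CPM in cells and 116, 141 and 142 CPM in exosomes. Exosomes were higher in all 6 mice with no overlap, by 1.12 ± 0.16 (adjusted p = 0.00259, edgeR) in WT and 1.11 ± 0.14 (adjusted p = 0.000108, edgeR) in DKO on the log2 scale. Rab22a, its closest relative, which directs recycling of MHC class I, had 37.9, 34.2 and 35.7 CPM in WT cells, 70.3, 67.2 and 61.0 CPM in WT exosomes, 40.6, 40.6 and 34.3 CPM in DKO cells and 58.4, 64.7 and 56.8 CPM in DKO exosomes. It was higher without overlap, by 0.90 ± 0.15 (adjusted p = 0.00411, edgeR) and 0.64 ± 0.13 (adjusted p = 0.00236, edgeR).

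The 3 Rab5 isoforms, which share the role of early endosome fusion, had different values. Rab5c had 294, 249 and 258 CPM in WT cells, 431, 393 and 432 CPM in WT exosomes, 257, 254 and 238 CPM in DKO cells and 401, 416 and 422 CPM in DKO exosomes. It was called higher in both, by 0.67 ± 0.14 (adjusted p = 0.00866, edgeR) and 0.73 ± 0.11 (adjusted p = 0.000268, edgeR), and the WT call was lost with total-count scaling and without the WT cells of mouse 42 or 46. Rab5a had 77.6, 83.3 and 83.1 CPM in WT cells, 27.8, 62.2 and 73.5 CPM in WT exosomes, 85.9, 86.1 and 95.1 CPM in DKO cells and 72.0, 72.1 and 89.8 CPM in DKO exosomes, and was called in neither, with −0.56 ± 0.32 and −0.19 ± 0.13. The low WT value was that of mouse 33, and all 6 mice had less in exosomes than in cells. Rab5b had 0.04 ± 0.15 in WT and 0.35 ± 0.11 in DKO, where it was called, but the call was lost under 5 of 14 alternatives, among them leaving out any 1 DKO cell library. Differences between the isoforms were not tested. Rab14 overlapped between compartments in both genotypes, at 274, 283 and 297 CPM in WT cells and 229, 282 and 293 CPM in WT exosomes, and 317, 295 and 317 CPM in DKO cells and 339, 308 and 348 CPM in DKO exosomes, with −0.07 ± 0.15 and 0.10 ± 0.11.

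The Rab4 pair, of fast recycling, and Rab20 of phagosomes complete the group with Rab21, an endosomal Rab that was called in neither. Rab4b was called higher in both, by 0.60 ± 0.17 (adjusted p = 0.0243, edgeR) and 0.76 ± 0.14 (adjusted p = 0.00134, edgeR), the WT call being lost under 6 of 15 alternatives, among them the mouse as a block and leaving out the WT cells of mouse 42 or 46 or the WT exosomes of mouse 42, and 77.1% of its 80-base stretches occur in another transcript. Rab4a was called in WT at 1.27 ± 0.39 (adjusted p = 0.0354, edgeR), from 1.45 to 3.19 CPM in cells to 4.63 to 7.14 CPM in exosomes, and not in DKO at 0.89 ± 0.55. The WT call was lost under 5 of 15 alternatives: total-count scaling, leaving out any 1 WT cell library, and leaving out the WT exosomes of mouse 42. Rab20 was called in DKO at 1.03 ± 0.22 (adjusted p = 0.00263, edgeR), from 7.58 to 11.6 CPM in cells to 17.3 to 24.2 CPM in exosomes, and not in WT at 0.37 ± 0.21. Of its 80-base stretches, 21.2% occur also in transcripts of E230013L22Rik, a non-coding gene that overlaps it.

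Recycling and plasma membrane Rabs return cargo to the surface, and of 9 tested, 2 were higher and 1 lower in WT, and 4 and 1 in DKO. In WT those are 22.2% and 11.1%, beside 18.7% and 19.6% of all genes. In DKO they are 44.4% and 11.1%, beside 23.7% of all genes each way. In WT none was called with the mouse as a block or without the WT exosomes of mouse 42, and 4 were higher and 1 lower without those of mouse 33. Rab8b, whose protein acts in transport to the plasma membrane, had 429, 488 and 503 CPM in WT cells and 560, 477 and 506 CPM in DKO cells. Exosomes from WT mice had 329, 336 and 343 CPM, and those from DKO mice 315, 403 and 375 CPM. It was lower in exosomes without overlap, by a log2 difference of −0.48 ± 0.14 (adjusted p = 0.0271, edgeR) and −0.50 ± 0.13 (adjusted p = 0.00867, edgeR), and the WT call was lost with the mouse as a block and without the WT cells of mouse 42 or 46, or the WT exosomes of mouse 42. Its paralog Rab8a had the opposite sign, at 0.34 ± 0.14 in WT (adjusted p = 0.0835, edgeR) and 0.61 ± 0.14 in DKO (adjusted p = 0.00462, edgeR), where it was called higher. With total-count scaling Rab8a was at −0.04 and Rab8b at −0.85 in WT, so the signs differed only in DKO, at 0.48 and −0.62. Rab12 was called higher in both, and Rab15 in WT at 0.755 to 1.09 CPM in cells and 1.85 to 3.35 CPM in exosomes. Both WT calls were lost with the mouse as a block, without any 1 WT cell library and without the WT exosomes of mouse 42, and with total-count scaling, where the DKO call of Rab12 was lost too. Rab10 and Rab13 were called in neither, at −0.26 ± 0.14 and −0.20 ± 0.18 in WT. Rab10 was lower in exosomes in 6 mice and Rab13 in 5, with 1 mouse the other way. With total-count scaling Rab10 was called lower in WT, at −0.64 (adjusted p = 0.0116, edgeR). Under that scaling Rab13 was called lower in DKO, at −0.54 (adjusted p = 0.0371, edgeR). Rab17 and Rab25 were too low to be tested.

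Late endosome, lysosome and autophagosome Rabs act where multivesicular bodies either fuse with lysosomes or with the plasma membrane. Of 7 tested, 3 were higher and 0 lower in WT exosomes, and 4 and 1 in DKO exosomes. In WT 42.9% were higher, where 18.7% of all genes were higher and 19.6% lower. In DKO the shares were 57.1% and 14.3%, beside 23.7% of all genes each way. At an unadjusted p below 0.05, 0 were lower in WT (edgeR), while DESeq2 called 0 and limma voom 1 lower there, and total-count scaling also gave 1. Rab7b, a Rab of the path from late endosomes to the trans-Golgi network, had 80.5, 68.7 and 66.2 CPM in WT cells and 123, 142 and 175 CPM in WT exosomes. In DKO it had 70.6, 78.1 and 81.7 CPM in cells and 163, 140 and 210 CPM in exosomes. Neither genotype overlapped, with differences of 1.04 ± 0.17 (adjusted p = 0.00419, edgeR) and 1.15 ± 0.15 (adjusted p = 0.000145, edgeR). Rab24, linked to autophagosomes, had 35.7, 29.7 and 29.9 CPM in WT cells, 61.5, 65.1 and 65.1 CPM in WT exosomes, 28.3, 34.3 and 35.0 CPM in DKO cells and 52.7, 59.9 and 58.0 CPM in DKO exosomes. It was higher by 1.03 ± 0.15 (adjusted p = 0.00288, edgeR) and 0.81 ± 0.14 (adjusted p = 0.000748, edgeR), and 32.4% of its 80-base stretches occur also in Prelid1 transcripts. Rab29, which recruits the kinase Lrrk2 at the Golgi and lysosomes, was called higher in both, at 0.89 ± 0.18 and 0.46 ± 0.16, but the DKO call was lost under 7 of 14 alternatives, among them leaving out any 1 DKO cell library or the DKO exosomes of mouse 152, and the WT call with total-count scaling. Rab32 and Rab38, Rabs of lysosome-related organelles, were called in neither.

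Rab7 and Rab9 of late endosomes lay on opposite sides. Rab7 had 194, 167 and 160 CPM in WT cells, 202, 235 and 267 CPM in WT exosomes, 155, 171 and 156 CPM in DKO cells and 287, 269 and 293 CPM in DKO exosomes. The groups did not overlap in these TMM-scaled values. The difference was 0.45 ± 0.16 in WT (adjusted p = 0.0531, edgeR), which misses the threshold, and 0.82 ± 0.11 in DKO (adjusted p = 0.000147, edgeR). With total-count scaling the difference of Rab7 was 0.08 in WT (adjusted p = 0.737, edgeR) and 0.69 in DKO (adjusted p = 0.000625, edgeR). Rab9, which returns receptors to the Golgi, had 51.2, 59.0 and 58.4 CPM in WT cells, 50.6, 43.6 and 37.3 CPM in WT exosomes, 69.9, 65.2 and 71.6 CPM in DKO cells and 32.6, 47.3 and 36.7 CPM in DKO exosomes. Its difference was −0.34 ± 0.17 in WT (adjusted p = 0.153, edgeR) and −0.82 ± 0.15 in DKO (adjusted p = 0.00128, edgeR). The interaction of compartment and genotype, the test of a change in the difference, was 0.38 ± 0.18 for Rab7 and −0.46 ± 0.23 for Rab9, both with an adjusted p of 0.715 (edgeR).

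Regulated secretion Rabs steer granules and multivesicular bodies to the plasma membrane, and 1 was higher and 1 lower in either genotype, of 7 tested in WT and 5 in DKO. The shares, 14.3% each way in WT and 20.0% each way in DKO, lay near those of all genes. Those were 18.7% and 19.6% in WT and 23.7% each way in DKO. The DKO count depended on the setting. In DKO, 1 was higher and 2 lower with no filter on low counts (9 tested) and with DESeq2 (7 tested). The same counts came from the fit on all 12 libraries (6 tested) and without the DKO exosomes of mouse 151 (5 tested). Rab3d, a granule Rab of secretory cells, had 81.6, 65.0 and 62.0 CPM in WT cells and 131, 123 and 117 CPM in WT exosomes. In DKO it had 58.4, 64.6 and 59.0 CPM in cells and 110, 113 and 114 CPM in exosomes. It was higher without overlap, by 0.85 ± 0.16 (adjusted p = 0.00605, edgeR) and 0.89 ± 0.11 (adjusted p = 0.000113, edgeR). Rab27a, whose protein docks multivesicular endosomes at the plasma membrane for exosome release, had 43.5, 50.6 and 52.8 CPM in WT cells and 23.3, 16.2 and 11.0 CPM in WT exosomes. In DKO it had 47.0, 42.2 and 34.6 CPM in cells and 17.9, 14.4 and 12.9 CPM in exosomes. All 6 mice had less in exosomes and the groups did not overlap. The log2 difference was −1.53 ± 0.27 in WT (adjusted p = 0.00546, edgeR) and −1.45 ± 0.18 in DKO (adjusted p = 9.54e-05, edgeR), and both calls held under every alternative tried. Its paralog Rab27b was at 36 counts over the WT cells and 18 over the WT exosomes, under 1 CPM in every library. Rab3a, Rab37 and Rab44 were called in neither genotype, Rab26 was not called in WT at −1.72 ± 0.74, and Rab3b and Rab3c were too low to be tested. In DKO Rab26 did not pass the filter on low counts, with 39 counts over the cells and 1 over the exosomes. Its DKO ratio of exosomes to cells per total count was 0.0341 (counting interval 0.000843 to 0.202). All 6 mice had less Rab26 in exosomes.

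The WT exosomes also differed in neutrophil and progenitor markers, which summed to 3635, 1954 and 557 CPM for mice 33, 42 and 46. Of the 9 regulated secretion Rabs, 5 had that same order (Rab3d, Rab27a, Rab27b, Rab37 and Rab44), as did 14 of all 59 Rab genes, a pattern picked out after the values were seen. Rab44, a large Rab of leukocyte granules, ran from 17.5 CPM in mouse 33 to 5.35 CPM in mouse 46, and Rab37, a Rab of secretory granules, had 7.87, 4.44 and 2.16 CPM. In DKO exosomes the marker sums were 1229, 1440 and 664 CPM and Rab44 had 7.44, 4.09 and 5.32 CPM. The part of the markers' source in these values was not tested.

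Among the other members, Rab28, a Rab of photoreceptors and cilia, and Rab40c, which joins a ubiquitin ligase, were called higher in both, the WT call of Rab40c being lost with total-count scaling and without the WT cells of mouse 42 or 46 or the WT exosomes of mouse 42. Rab28 had 28.5, 28.4 and 31.4 CPM in WT cells, 102, 57.7 and 54.2 CPM in WT exosomes, 37.5, 31.0 and 31.2 CPM in DKO cells and 48.7, 56.3 and 45.6 CPM in DKO exosomes. The highest WT exosome value was that of mouse 33. The difference was 1.29 ± 0.26 (adjusted p = 0.00800, edgeR) in WT and 0.60 ± 0.14 (adjusted p = 0.00556, edgeR) in DKO. Rab23, an inhibitor of Hedgehog signalling, was at 3.69 to 7.79 CPM over the 12 libraries and was called in neither, as was Rab42 in WT.

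The 10 Rabs linked to exosome release form a list that crosses the roles above: Rab2b, Rab5a, Rab7, Rab9, Rab11a, Rab11b, Rab27a, Rab27b, Rab31 and Rab35. In WT, 1 was higher (Rab31) and 1 lower (Rab27a) of 10 tested, and in DKO, 5 were higher and 2 lower of 9 tested. The WT shares, 10.0% each way, lay under the 18.7% and 19.6% of all genes. In DKO 55.6% were higher and 22.2% lower, where 23.7% of all genes were called each way, so the lower share lay near that of all genes. Without the WT exosomes of mouse 33, 4 were higher and 1 lower in WT, and limma voom called 4 higher and 3 lower. Rab11a, the Rab of recycling endosomes, had 172, 195 and 199 CPM in WT cells, 279, 217 and 234 CPM in WT exosomes, 245, 226 and 213 CPM in DKO cells and 204, 246 and 205 CPM in DKO exosomes. WT compartments did not overlap whereas DKO compartments did, and neither difference was called, at 0.38 ± 0.15 and −0.06 ± 0.12. With total-count scaling the differences of Rab11a were 0.00 in WT and −0.19 in DKO. Its paralog Rab11b had 32.5, 22.4 and 25.3 CPM in WT cells, 32.2, 39.6 and 35.9 CPM in WT exosomes, 19.4, 22.1 and 20.8 CPM in DKO cells and 27.2, 36.0 and 38.8 CPM in DKO exosomes. The DKO libraries did not overlap, and the difference was called there at 0.71 ± 0.17 (adjusted p = 0.00571, edgeR) and was 0.44 ± 0.19 in WT (adjusted p = 0.103, edgeR).

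Rab35, which controls recycling at the plasma membrane and has been linked to exosome docking, had 78.2, 63.2 and 76.1 CPM in WT cells, 96.1, 103 and 89.9 CPM in WT exosomes, 64.8, 60.4 and 68.6 CPM in DKO cells and 88.8, 96.1 and 88.9 CPM in DKO exosomes. The compartments did not overlap in these TMM-scaled values. The difference was 0.43 ± 0.15 in WT (adjusted p = 0.0562, edgeR) and 0.50 ± 0.12 in DKO (adjusted p = 0.00478, edgeR). With total-count scaling the difference of Rab35 was 0.06 in WT (adjusted p = 0.809, edgeR) and 0.37 in DKO (adjusted p = 0.0333, edgeR). Rab2b had 10.0, 10.2 and 8.10 CPM in WT cells, 16.2, 11.1 and 14.0 CPM in WT exosomes, 9.61, 8.48 and 9.74 CPM in DKO cells and 13.6, 16.9 and 13.6 CPM in DKO exosomes. Of the 10 genes, Rab27a was the one called lower in both genotypes.

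**Figure D3:**
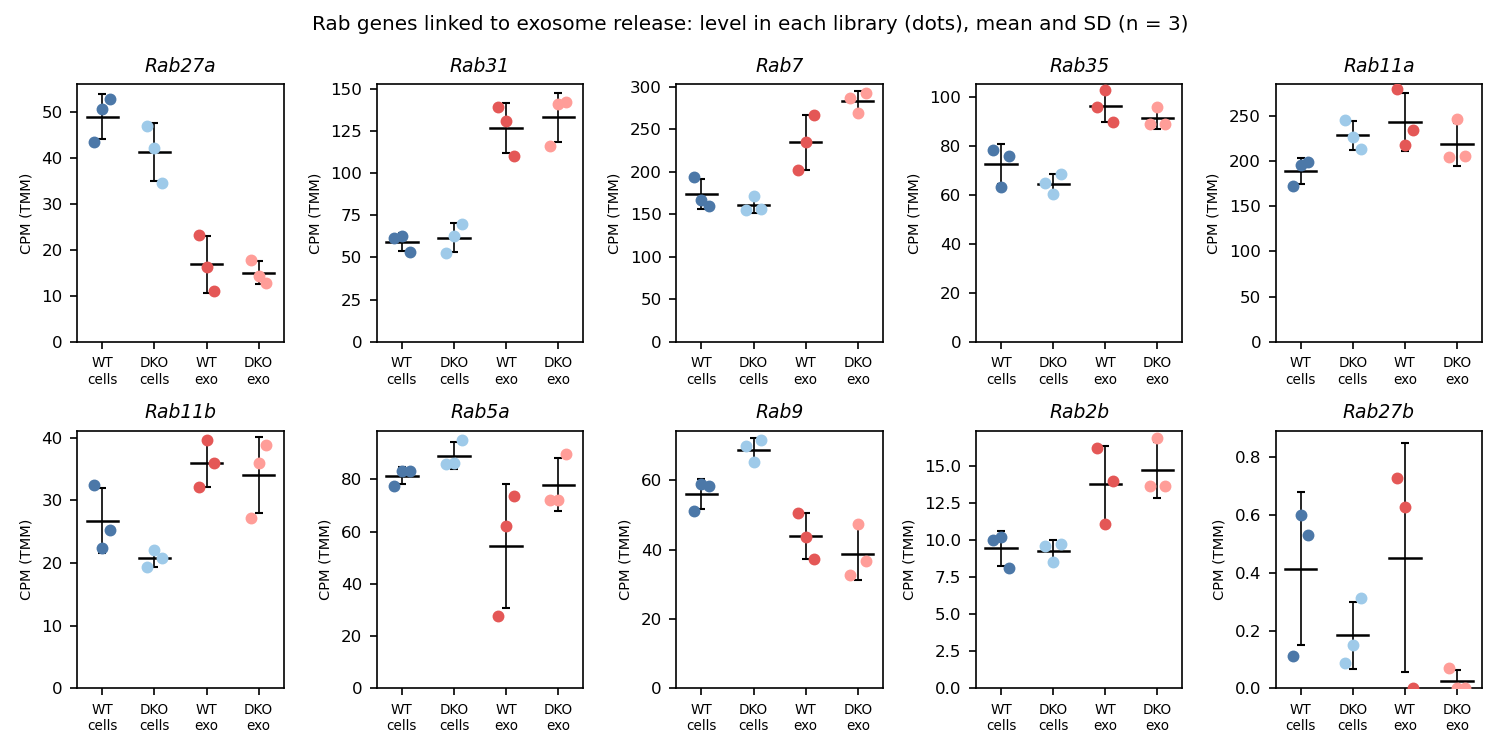
CPM (TMM-scaled) in each library of the 10 Rab genes linked to exosome release, with the mean and SD of 3 libraries as bars. Rab27a drops from 34.6 to 52.8 CPM in cells to 11.0 to 23.3 CPM in exosomes, and Rab31 goes from 52.5 to 69.6 CPM to 110 to 142 CPM.

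A second list crosses the roles, the 10 Rabs linked to antigen cross-presentation, by which dendritic cells load ingested antigen onto MHC class I. Of 8 tested, 2 were higher (Rab22a and Rab34) and 2 lower (Rab27a and Rab39) in WT, and 3 were higher and 2 lower in DKO. Those are 25.0% each way in WT and 37.5% and 25.0% in DKO, near the 18.7% and 19.6% of all genes in WT and, for the lower calls, the 23.7% in DKO. Its median log2 difference was 0.15 in WT and 0.04 in DKO.

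The exosome differences were then set side by side between genotypes. Of 47 genes tested in both, 20 were called in both, 16 higher and 4 lower (Rab27a, Rab30, Rab39 and Rab8b), and 0 in opposite directions. Rab15 and Rab4a were called in WT and not in DKO, and 9 in DKO and not in WT: Rab11b, Rab20, Rab2b, Rab35, Rab43, Rab5b, Rab7 and Rab8a higher and Rab9 lower. None of these differences between genotypes was called by the interaction test given below. Across the 47 genes Pearson's r of the WT and DKO differences was 0.93, and 0.83 over 45 genes without Rab30 and Rab39, and Spearman's rho was 0.81. This relation is across genes, which share their libraries within each genotype. Across the tested members, Spearman's rho of the difference with transcript GC content was 0.45 in WT and 0.56 in DKO. It was not computed over all genes, so whether it is particular to Rab genes cannot be told. With deposited length rho was −0.25 in WT and −0.22 in DKO over the members, against −0.37 and −0.27 over all genes.

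**Figure D4:**
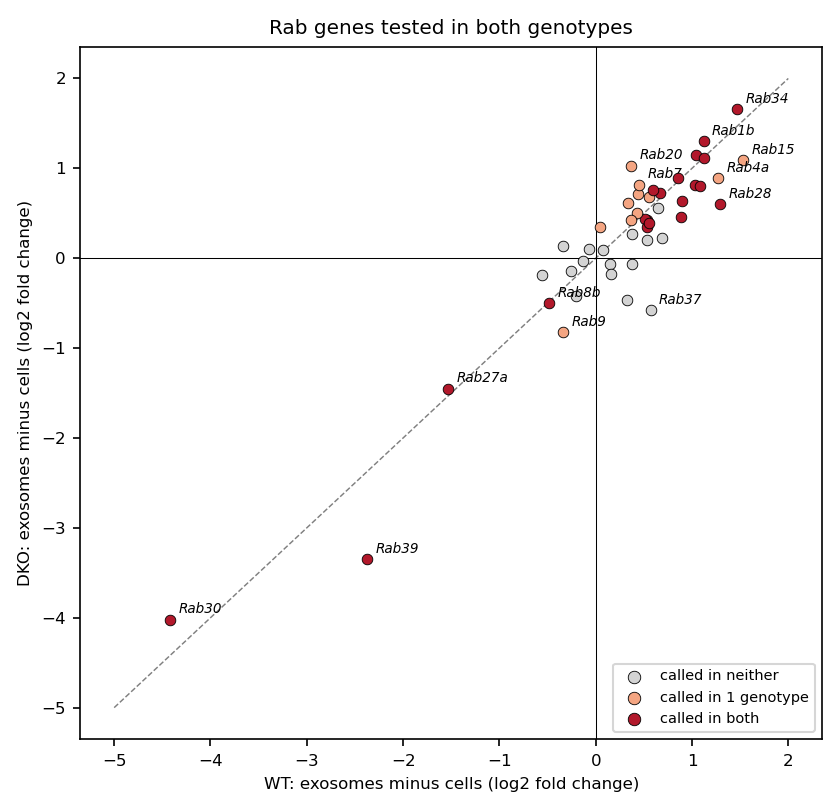
Log2 fold change between exosomes and cells in WT (x axis) and in libraries labelled DKO (y axis) for the 47 Rab genes tested in both, coloured by the number of genotypes in which each was called. Points follow the dashed line of equality, and 4 genes called in both lie at the lower left.

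The genes that act on Rabs were described by list, beside the 18.7% higher and 19.6% lower of all tested genes in WT and 23.7% each way in DKO. Of 14 subunits of TRAPP, tethering complexes that also act as exchange factors for Rab1 and Rab11, 8 were higher and 2 lower in WT, and 7 and 2 in DKO. Trappc2l had 37.0 ± 2.35 CPM in WT cells and 95.7 ± 20.0 CPM in WT exosomes (SD, n = 3), a log2 difference of 1.39 ± 0.19 (adjusted p = 0.00248, edgeR), and Trappc6a was higher by 1.38 ± 0.26 in WT and 1.15 ± 0.15 in DKO. Of 8 genes of Rab prenylation, escort and GDI, 3 were higher and 4 lower in WT, and 4 and 3 in DKO. Gdi2, the main GDI, was lower, at 1208 ± 91.2 CPM in WT cells against 693 ± 19.4 CPM in WT exosomes (−0.78 ± 0.14, adjusted p = 0.00526, edgeR) and 1277 ± 108 against 706 ± 10.1 CPM in DKO (−0.85 ± 0.12, adjusted p = 0.000214, edgeR). Chm, the escort protein of newly made Rabs, was lower, at −1.49 ± 0.32 and −0.84 ± 0.14, whereas Rabac1, a Rab receptor of the Golgi, was higher by 1.35 ± 0.27 and 1.27 ± 0.19. Without any 1 of the DKO cell libraries 2 of the list were higher and 3 lower in DKO.

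Of 32 exchange factors tested, 0 were higher and 10 lower in WT, and 6 and 6 in DKO. Dennd4a, an exchange factor of Rab10, had the smallest p of the list in WT, with 68.5 ± 3.56 CPM in cells and 18.3 ± 2.48 CPM in exosomes, or −1.89 ± 0.17 (adjusted p = 0.000594, edgeR), and in DKO the difference was −1.80 ± 0.22. At an unadjusted p below 0.05, 3 were higher and 11 lower in WT (edgeR), DESeq2 called 1 higher and 10 lower and limma voom 8 and 11. Lower calls in WT were 3, 6 and 2 without the cells of mice 33, 42 and 46, in that order, and 4 when the exosomes of mouse 42 were left out. Leaving out the exosomes of mouse 33 gave 3 higher and 8 lower. In DKO there were 3 higher and 3 lower without the cells of mouse 151, 3 and 5 without those of mouse 152 and 5 and 3 without those of mouse 153. Leaving out the DKO exosomes of mouse 153 gave 4 and 7.

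Of 37 GAPs, 7 were higher and 7 lower in WT, and 12 and 7 in DKO. The WT shares, 18.9% each way, lay near those of all genes, and the DKO shares were 32.4% and 18.9%. Rabgap1l had 90.3 ± 16.3 CPM in WT cells and 11.2 ± 1.78 CPM in WT exosomes, and Tbc1d4, a GAP of glucose transporter traffic, had 125 ± 5.50 and 20.4 ± 6.07 CPM. Their log2 differences were −2.99 ± 0.22 and −2.60 ± 0.24 in WT and −2.57 ± 0.19 and −3.37 ± 0.28 in DKO. With total-count scaling 2 GAPs were higher and 15 lower in WT, and 3 were higher without the WT cells of mouse 42 or 46 or the WT exosomes of mouse 42. Of 31 effectors tested, 9 were higher and 4 lower in WT, and 11 and 5 in DKO, and with total-count scaling 3 were higher and 10 lower in WT. Higher and lower WT effectors numbered 6 and 3 without the cells of mouse 33, 2 and 2 without those of mouse 42, 1 and 2 without those of mouse 46, and 5 and 2 when mouse 42's exosomes were left out. With the mouse as a block 8 were higher and 2 lower. DKO counted 3 lower without the cells of mouse 151. The early endosome tether Eea1 was lower in WT at −1.56 ± 0.21 and Rilpl2, an effector of Rabs phosphorylated by Lrrk2, was higher by 0.87 ± 0.19 in WT and 1.03 ± 0.12 in DKO.

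Genotype was compared within cells and within exosomes, as the design asks for all groups. No Rab gene was called in either: 0 of 50 tested in cells and 0 of 45 in exosomes, where 0.404% of 13106 and 0.0332% of 12064 tested genes were called by edgeR. At an unadjusted p below 0.05 there were 9 of the 50 Rab genes in cells and 4 of the 45 in exosomes, against 10.8% and 8.32% of all genes. The Rab share was larger than that of all genes in cells and near it in exosomes. DESeq2 and limma voom also called 0 in both. In cells the tested differences ran from −1.05 to 0.74 on the log2 scale with 45 of 50 within 0.5, and in exosomes from −1.40 to 0.75 with 40 of 45 within 0.5. The smallest adjusted p was 0.305 in cells and 0.552 in exosomes (edgeR). For Rab27a the DKO minus WT difference was −0.23 ± 0.14 in cells and −0.16 ± 0.30 in exosomes.

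The Rab genes with an unadjusted p below 0.05 in both comparisons, chosen after their values were seen, were Rab34, Rab4a and Rab43. Rab34 was 0.58 ± 0.24 higher in DKO cells and 0.75 ± 0.25 higher in DKO exosomes, and Rab4a differed by −0.97 ± 0.41 and −1.40 ± 0.48. Rab43 differed by −0.44 ± 0.19 and −0.39 ± 0.14. None passed adjustment, and 2 Rab genes in cells and 1 in exosomes had an unadjusted p below 0.05 with sex as a covariate. Genotype and sex are partly confounded, since all DKO mice were male. The interaction of compartment and genotype called 0 of 50 tested Rab genes and 0 of 12970 tested genes (0%, edgeR), with 3 Rab genes at an unadjusted p below 0.05 (Rab11a, Rab20 and Rab28) and 5.98% of all genes. DESeq2 and limma voom called 0 Rab genes too, and voom called 40 genes higher and 8 lower.

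**Figure D5:**
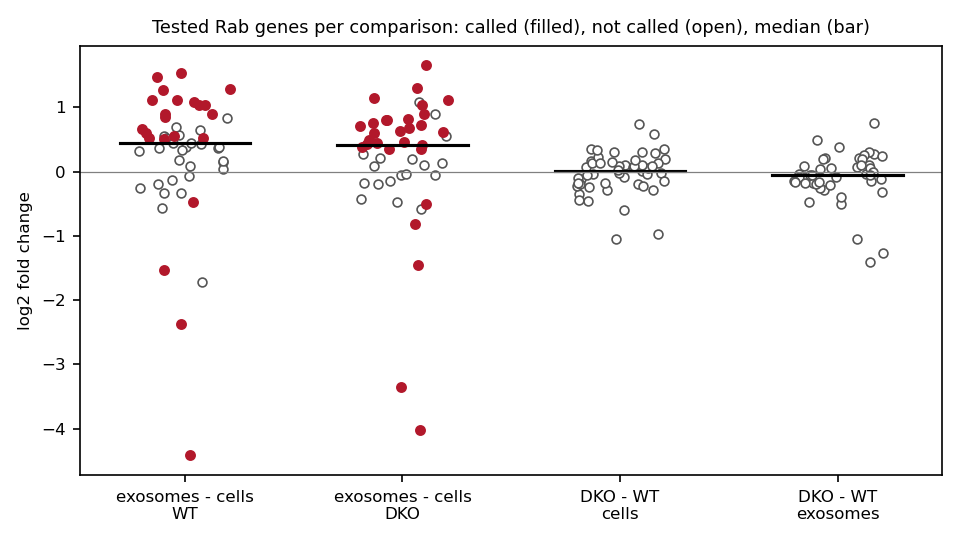
Log2 fold change of each tested Rab gene in 4 comparisons, with called genes filled, the others open and the median as a bar. The exosome against cell comparisons have filled points on both sides of 0 and medians of 0.45 and 0.42, and the genotype comparisons have none filled and medians of 0.02 and −0.05.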

How the data were processed

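The values used were whole-number counts per gene and 1 length per gene, as the authors deposited them. Per the submitters' processing notes, the authors counted with featureCounts on mm10. The sources used here name no aligner, version, annotation or strand setting, so overlapping genes on opposite strands cannot be separated. Library kits took 200 ng of RNA and gave 80 bp paired reads, per the labels' protocols. Symbols were matched by identifier for 25275 of 27179 identifiers and counts without a symbol made up 1.06% to 7.88% of a library.

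Counts were tested with the quasi-likelihood test of edgeR 4.0.16 under R 4.3.3 (filterByExpr, TMM, robust), and p-values were adjusted by Benjamini-Hochberg over every tested gene, on the 6 libraries of each pairwise comparison or all 12 for the interaction. Scripts were tested on simulated data. TPM was used within a library group to compare genes. Coding ends, GC content and 80-base stretches came from GENCODE M21 transcripts. The members, gene lists and tests were chosen with earlier results of these data known. Genes given library by library were, per comparison, up to 6 called members in each direction by smallest adjusted p, the 5 highest per length in WT cells, and Rabs linked to exosome release; regulators were up to 4 per list by smallest p. Rab28, Rab5b, Rab15 and other members outside that rule were named to account for the family.

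Each mouse's number marks its cells and its exosomes, so the numbers pair the libraries by animal. Deviations from group means of the paired libraries correlated at 0.006, 0.078, 0.102, 0.147, 0.116 and 0.114 for mice 33, 42, 46, 151, 152 and 153. Alternatives were the mouse as a block, 2 other scalings, 2 other filters, DESeq2 1.42.0, limma voom (limma 3.58.1), sex as a covariate, 1 fit over the 12 libraries together, and leaving out each library. Genotype groups are separate animals.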

Additional observations from a re-analysis of the deposited data

How the results depend on the processing

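The count of Rab genes called between WT exosomes and WT cells was 22. It was 14 with total-count scaling and 34 with limma voom, and the cause was not tested. Leaving out 1 library gave 11 to 26, the lowest without the WT cells of mouse 42 or of mouse 46, where fewer samples were fitted. With the mouse as a block it was 16, of which 13 were higher and 3 lower. The block ended the WT calls of Rab1a, Rab4b, Rab8b, Rab12, Rab15 and Rab18, and changed no call of a Rab gene in the DKO comparison. Without both libraries of mouse 33, an alternative chosen after seeing the data, it was 28. Between DKO exosomes and DKO cells the count was 29 and ran from 23 to 30 over every alternative, with 29 under the block. In the genotype comparisons and the interaction, 0 Rab genes were called under every alternative run, and 0 under the block in the interaction. Of the called Rab genes, 10 of 22 in WT and 21 of 29 in DKO kept their call under every alternative, and 0 reversed. Depth limits the 10 genes under 1 CPM in every group.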
